A study of Rattus norvegicus with 6 samples.

Results

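The adrenomedullin and calcitonin gene-related peptide (CGRP) family was taken as 9 genes: the ligand genes Adm, Adm2, Calca and Calcb, the receptors Calcrl and Calcr, and the receptor activity-modifying proteins Ramp1, Ramp2 and Ramp3. They were found by gene symbol in the array platform's probe table, among 14506 genes tested. The probe set of a gene is chosen by the highest mean over the 6 arrays, but each of the 9 genes had exactly 1, so no measured value decided. The arrays carried RNA from neurospheres, floating clusters of cells grown from the dispersed carotid body of adult rats, a small organ beside the carotid artery that senses blood oxygen. In 3 of them the cells were labelled undifferentiated: 10 days in neural crest medium with FGF, IGF-1, EGF and ET-1 as mitogens, at normal oxygen. In the other 3 they were labelled differentiated: 10 days in that medium with no mitogens, at 3% oxygen. Mitogens and oxygen therefore changed together, and their effects cannot be told apart. Beyond adult, the labels give no age, and they give no strain, sex or genotype of the rats, nor whether replicates are separate cultures or animals, so p-values here reflect only how these samples scatter, and that scatter may be technical. The series was set up to find pathways that separate neuron-rich from undifferentiated spheres.

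Peptides of this family are made from larger precursors and act through a shared receptor design. Calcrl encodes a G protein-coupled receptor that reaches the cell surface and acquires its ligand preference only with a partner protein: with RAMP1 it is the CGRP receptor, and with RAMP2 or RAMP3 it is an adrenomedullin receptor. All of these couple to Gs and raise cAMP. Adrenomedullin is a vasodilator whose gene is a textbook target of hypoxia-inducible factors, and CGRP is a vasodilator of sensory nerve endings, which also reach the carotid body.

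Observations that go against the labels stand before the results. Th, tyrosine hydroxylase, which starts catecholamine synthesis in glomus cells, the oxygen-sensing cells of the carotid body, had a mean log2 value of 13.76 in the arrays labelled undifferentiated and 10.90 in those labelled differentiated. All 10 measured genes of an 11-gene glomus cell marker list were lower in the arrays labelled differentiated. Of 29 measured targets of hypoxia-inducible factors, 19 were called lower and 3 higher in those arrays, although they were labelled with 3% oxygen. Groups are therefore named by their labels, and every difference is the arrays labelled differentiated minus those labelled undifferentiated, on the log2 scale. Whether the group labels were exchanged was not tested, and if they were, every direction given here would reverse. Over all probe sets, arrays of a group correlated at 0.986 to 0.993 (Pearson), and arrays of different groups at 0.959 to 0.970.

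The 300 bases around the RefSeq start sites (250 before, 50 after) are shown for Adm, Adm2 and Ramp3, the members with the largest differences, because the ligand genes and the receptor partner moved in opposite directions. They were read from the RefSeq promoter table of build GRCr8, plus strand, 5′ to 3′. Capitals mark matches to ACGTG or GCGTG, the core of the hypoxia response element, TGACG or TGACGTCA, the short and full forms of the cAMP response element, TATAA, the TATA box, and GGGCGG, the GC box, on either strand.
Adm, chr1:174179950-174180249: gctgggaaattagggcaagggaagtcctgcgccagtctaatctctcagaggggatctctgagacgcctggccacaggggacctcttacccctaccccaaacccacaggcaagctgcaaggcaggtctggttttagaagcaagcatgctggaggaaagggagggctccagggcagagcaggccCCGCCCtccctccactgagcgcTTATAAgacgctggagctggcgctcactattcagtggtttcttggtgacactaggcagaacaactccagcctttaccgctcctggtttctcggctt
Adm2, chr7:122272558-122272857: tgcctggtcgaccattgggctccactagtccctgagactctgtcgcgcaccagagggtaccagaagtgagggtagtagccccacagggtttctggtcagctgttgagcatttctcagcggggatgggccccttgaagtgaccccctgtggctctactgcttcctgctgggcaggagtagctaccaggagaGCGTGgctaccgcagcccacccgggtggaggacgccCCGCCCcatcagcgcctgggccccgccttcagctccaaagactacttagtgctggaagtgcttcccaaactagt
Ramp3, chr14:85741064-85741363: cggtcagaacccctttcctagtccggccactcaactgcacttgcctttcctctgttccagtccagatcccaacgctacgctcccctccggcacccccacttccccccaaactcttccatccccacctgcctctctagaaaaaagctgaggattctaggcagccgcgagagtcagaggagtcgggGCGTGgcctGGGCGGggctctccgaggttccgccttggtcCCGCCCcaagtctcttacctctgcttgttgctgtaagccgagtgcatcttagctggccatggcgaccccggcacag
Adm2 held GCGTG at position -60 and Ramp3 at position -66 from the start, counted by the first base of the match. The window of Adm held neither core, but it held TATAA at position -45 on the plus strand, which overlaps its minus-strand match at -46. The table's start for Adm lies inside the RefSeq gene span, so this window may not be the promoter at the gene's outer end. Bases farther upstream were not searched, and the matches of Adm describe this window only. The RefSeq table matched 7 of the 9 members; Calcb and Ramp2 had no entry. Of these 7, Adm2, Ramp1 and Ramp3 held a hypoxia response element core, against 41.6% of all 33469 promoters of this length. ACGTG alone was in 19.3% of all promoters and 0 members, and GCGTG in 29.7%. TATAA was in 26.2% of all promoters and only in Adm among the members. TGACG was in 21.2% of all promoters and in Calca and Calcr, the full TGACGTCA in 1.83% and 0 members, and GGGCGG in 33.1% and 5 members. Matches describe letters in a window and do not show that a factor binds.

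In the arrays labelled differentiated, the ligand genes Adm and Adm2 fell and the receptor subunit genes Ramp3, Calcrl and Ramp1 rose. The other ligand genes, Calca and Calcb, and the receptor genes Calcr and Ramp2 did not pass. So 5 of 9 members passed a limma adjusted p of 0.05, 3 higher and 2 lower. Over all 14506 genes 29.5% passed, 14.7% higher and 14.9% lower. The 3 arrays of one group all lay above those of the other in 6 of the 9 members, against 42.3% of all genes. In whole-culture RNA, fewer cells of a type and less RNA per cell cannot be told apart.

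**Figure D1:**
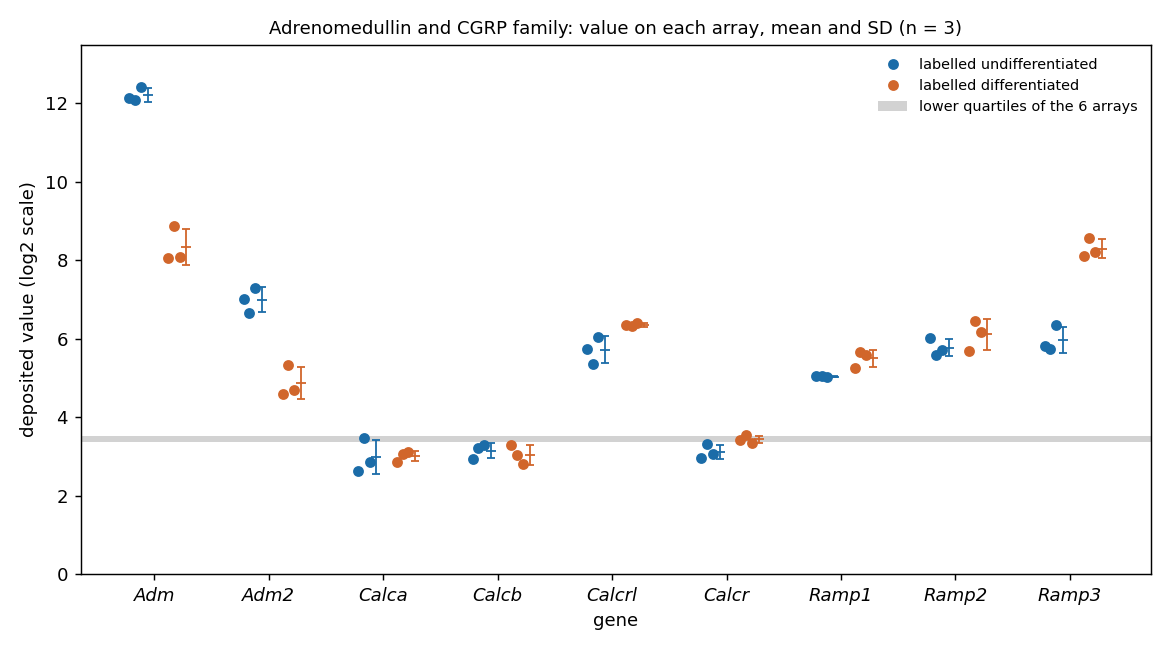
Deposited log2 value of each gene (y axis) on each of the 6 arrays (points), with the group mean and SD (bars, n = 3) and a grey band for the lower quartiles of all probe sets on the 6 arrays. Adm reads 12.10 to 12.42 in the arrays labelled undifferentiated and 8.06 to 8.87 in those labelled differentiated, and the groups are apart in the opposite direction for Ramp3; all values of Calca and Calcb lie below their array's lower quartile, as do 5 of the 6 of Calcr.

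Adm, which encodes the precursor of adrenomedullin, was the member with the largest difference. Its log2 values in the arrays labelled undifferentiated were 12.13, 12.10 and 12.42, and in those labelled differentiated 8.06, 8.87 and 8.08. Every undifferentiated array lay above every differentiated one, with a gap of 3.23 between the nearest arrays, and differentiated replicate 2 was the highest of its group. The means were 12.21 ± 0.17 and 8.34 ± 0.47 (SD, n = 3). With a difference of -3.88 ± 0.20 (SE), Adm was 14.7-fold lower (limma adjusted p = 1.47e-07), the 14th largest fall of 14506 genes. Without differentiated replicate 2 the fall was larger, at 4.15.

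Adm2, which encodes intermedin, also called adrenomedullin 2, a peptide that acts at the same receptors, moved with Adm. It read 7.03, 6.66 and 7.31 in the arrays labelled undifferentiated and 4.60, 5.34 and 4.70 in those labelled differentiated. The groups did not overlap, with a gap of 1.32, and differentiated replicate 2 was again the highest of its group and the only one of it above its array's median over all probe sets. Adm2 was 4.34-fold lower (log2 difference -2.12 ± 0.21, SE; limma adjusted p = 2.06e-05) and ranked 170th among the falls.

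Calca and Calcb, which encode the CGRP peptides (Calca also calcitonin), were dim. Calca read 2.64, 3.47 and 2.87 in the arrays labelled undifferentiated and 2.87, 3.06 and 3.11 in those labelled differentiated. Calcb read 2.93, 3.22 and 3.29, then 3.29, 3.03 and 2.80. For both genes the groups overlapped, and all 6 values lay below the lower quartile of their array, which ran from 3.37 to 3.52. The difference was 0.023 for Calca (95% interval -0.43 to 0.48, limma adjusted p = 0.951) and -0.11 for Calcb (-0.49 to 0.27, adjusted p = 0.691). Its sign turned under several settings for Calca and under 1 for Calcb, so no direction is given. Whether such dim values exceed background was not measured in the deposited table. Of 9 measured markers of sensory neurons, whose endings are where CGRP is best known, 0 rose and 4 fell. These markers do not measure nerve endings themselves. The log2 of the list's summed level was 9.01 to 9.22 in the arrays labelled undifferentiated and 8.24 to 8.56 in those labelled differentiated. Such a sum adds unlogged values, so bright genes weigh most in it. Among these markers Isl1, a transcription factor of sensory and sympathoadrenal cells, fell by 1.52 and the substance P precursor gene Tac1 fell by 1.65. The sensory sodium channel gene Scn10a, named after its value was seen, differed by -0.0034 around a mean of 3.36 in both groups. The list's falls were 2 in place of 4 in 6 of 17 settings, among them those without undifferentiated replicate 2 or 3 or differentiated replicate 3.

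Calcrl, the shared receptor of CGRP and adrenomedullin, read 5.74, 5.37 and 6.05 in the arrays labelled undifferentiated and 6.34, 6.32 and 6.41 in those labelled differentiated. The groups did not overlap, but the gap was 0.27, and the differentiated arrays were much closer together (SD 0.048) than the undifferentiated ones (SD 0.34). Calcrl was 1.55-fold higher (log2 difference 0.64 ± 0.16, SE; limma adjusted p = 0.0109), and its adjusted p stayed under 0.05 when each array was left out (difference 0.46 to 0.80). Calcr, the calcitonin receptor, which serves calcitonin and, with RAMPs, amylin, read 2.96, 3.32 and 3.07, then 3.42, 3.54 and 3.35. Those groups did not overlap, by only 0.028, and 5 of the 6 values lay below the lower quartile. Its difference of 0.32 (95% interval -0.014 to 0.66) did not pass (adjusted p = 0.149).

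Of the receptor partners, Ramp3 was the one with the largest rise. It read 5.83, 5.75 and 6.36 in the arrays labelled undifferentiated and 8.12, 8.58 and 8.21 in those labelled differentiated, with a gap of 1.75 between the groups. The group means were 5.98 and 8.30. Ramp3 rose by 2.32 ± 0.17 (SE; limma adjusted p = 2.07e-06), the 23rd largest rise of 14506 genes. When each array was left out, the rise was 2.18 to 2.51.

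Ramp1, the partner that makes Calcrl a CGRP receptor, read 5.05, 5.04 and 5.03 in the arrays labelled undifferentiated and 5.26, 5.65 and 5.59 in those labelled differentiated. The undifferentiated arrays spanned only 0.023, and the groups were 0.21 apart. Ramp1 rose by 0.46 ± 0.14 (SE, limma adjusted p = 0.0261). The call was lost without undifferentiated replicate 1 (adjusted p = 0.067), 2 (0.0606) or 3 (0.0743) and without differentiated replicate 2 (0.0856) or 3 (0.0879), and of the 6 fits with 1 array left out it held only in the one without differentiated replicate 1. Ramp2, the partner best known from endothelial cells, read 6.02, 5.60 and 5.72, then 5.70, 6.47 and 6.18. The groups overlapped, since differentiated replicate 1 lay within the undifferentiated range. Its difference of 0.34 (95% interval -0.077 to 0.75) did not pass (adjusted p = 0.223), but it passed without differentiated replicate 1 (0.55, adjusted p = 0.0338) and was smaller without differentiated replicate 2 (0.16, adjusted p = 0.577).

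**Figure D2:**
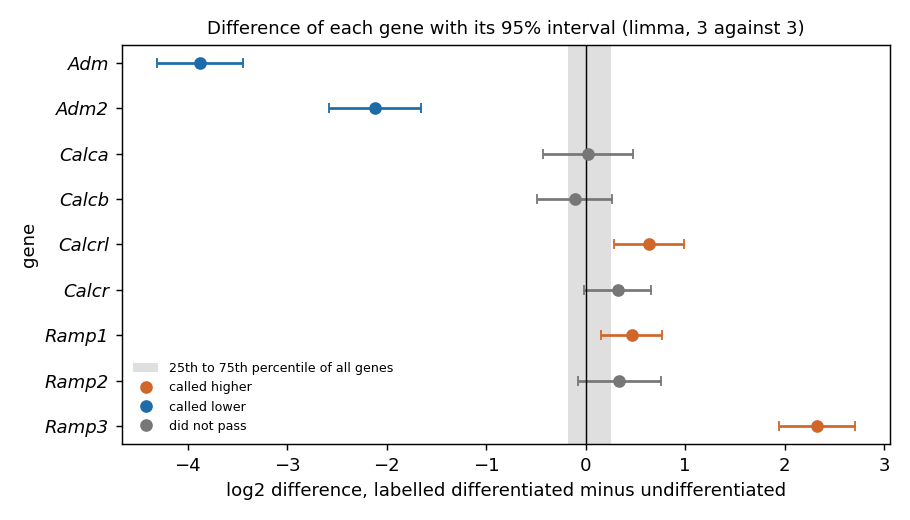
Log2 difference of each gene, arrays labelled differentiated minus undifferentiated (x axis), with its 95% interval from the limma fit of 3 against 3 arrays; grey shading spans the 25th to 75th percentile of all genes tested. Adm and Adm2 lie far to the left, at -3.88 and -2.12, and Ramp3 far to the right, at 2.32, while the intervals of Calca, Calcb, Calcr and Ramp2 cross 0.

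Whether the receptor subunits changed unequally was tested on within-array differences of log2 values, over the 6 pairs of Calcrl, Ramp1, Ramp2 and Ramp3. An exact two-sided permutation test of 3 against 3 arrays cannot go below p = 0.1, and after adjustment over the 6 pairs the smallest here was 0.2. Ramp3 minus Calcrl was 0.09, 0.38 and 0.31 in the arrays labelled undifferentiated and 1.77, 2.27 and 1.80 in those labelled differentiated. This is a shift of 1.69 with no overlap between groups (exact permutation p = 0.1). Ramp3 shifted by 1.86 against Ramp1 and by 1.98 against Ramp2, also with no overlap (exact p = 0.1 each). The 3 pairs without Ramp3 overlapped: Ramp1 minus Calcrl shifted by -0.17 (exact p = 0.5), Ramp2 minus Calcrl by -0.30 (exact p = 0.4) and Ramp2 minus Ramp1 by -0.12 (exact p = 0.6). With single arrays left out these 3 shifts ran from -0.35 to 0.0038 (without undifferentiated replicates 3 and 2), from -0.49 to -0.097 (without undifferentiated replicate 3 and differentiated replicate 1) and from -0.22 to -0.0079 (without differentiated replicate 2 and undifferentiated replicate 1). In these arrays the rise of Ramp3 exceeded that of its partners in every pairing, at the smallest p the design allows, which does not pass 0.05.

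**Figure D3:**
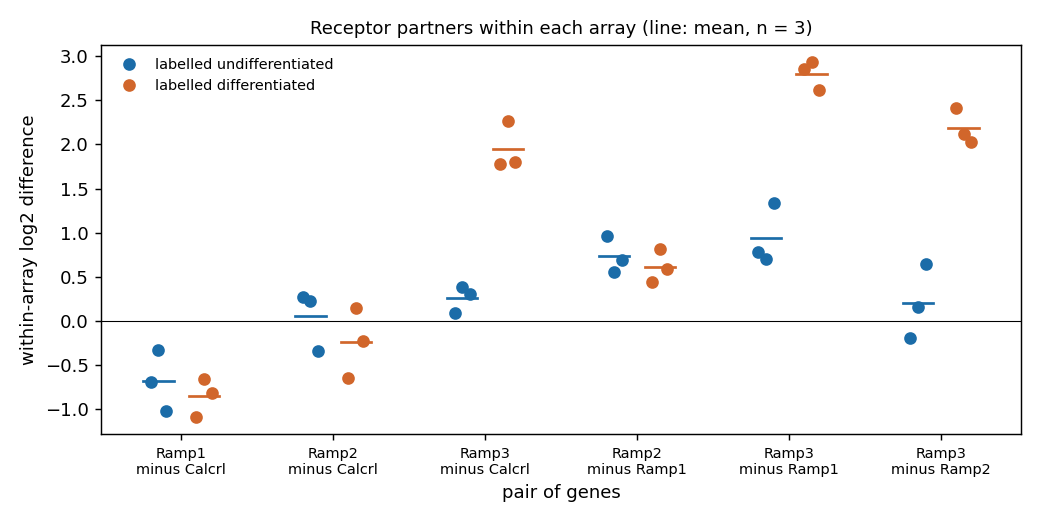
Within-array log2 difference of each pair of receptor genes (y axis) on each array (points; lines are means of 3). The height of a pair has no meaning across probe sets and only the shift between the groups is read: the pairs with Ramp3 shift by 1.69 to 1.98 with no overlap, and the other 3 pairs overlap.

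Genes with the profile most like a member were found by the smallest root mean square (RMS) difference over the 6 arrays, after each gene was centred on its mean. The members themselves and symbols that start with LOC, RGD or MGC were left out of this search. Because the arrays fall into 2 groups, this likeness mostly reflects a shared group difference. For Adm they were Spock1 (RMS difference 0.12), Car12 (0.17), Nptx2 (0.19), Ret (0.19) and Tmem130 (0.21), against a median of 1.99 over the genes searched. All 5 fell, by 3.61 to 4.02. Car12 is a carbonic anhydrase, Ret the receptor of the GDNF family and Nptx2 a neuronal pentraxin. For Adm2 they were Eno2, the neuronal enolase (0.15), Dpp6, a subunit of potassium channels (0.20), Ptprn2, a protein of dense-core granules (0.21), the growth factor Bmp7 (0.22) and the neuronal filament gene Ina (0.23), against a median of 1.14. For Ramp3 they were Serpinb2, a plasminogen activator inhibitor (0.17), Fst, follistatin (0.23), Lrrc15 (0.23), Steap1 (0.24) and the integrin gene Itgb3 (0.24), against a median of 1.17. All 10 of these passed in the direction of their member.

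Marker genes of cell types also differed between the groups. The log2 of the summed level of the 10 glomus cell markers was 14.66 to 14.84 in the arrays labelled undifferentiated and 11.64 to 12.23 in those labelled differentiated. Differentiated replicate 2 was the highest of its group in this sum, as for Adm and Adm2. It was also the highest for Ramp1, Ramp2, Ramp3, Calcr and the summed macrophage and osteoclast markers, so this order is not particular to genes that fell. The enzyme genes Ddc and Gch1 of that list fell by 3.25 and 3.23. Of 7 fibroblast markers 6 rose and 0 fell, with a median of 1.09, and the log2 summed level went from a range of 13.36 to 13.82 to one of 14.64 to 14.70. In that list the growth factor receptor gene Pdgfra rose by 1.46 and the collagen gene Col3a1 by 1.29. Of 10 smooth muscle and pericyte markers 4 rose and 2 fell, with a median of 0.35. The log2 summed levels, in which bright genes such as Rgs5 weigh heavily, were 12.80 to 13.02 and then 12.26 to 12.36. The contractile genes Tagln and Acta2 rose by 1.45 and 0.97, and the pericyte gene Rgs5, with means of 12.42 and then 10.14, fell by 2.28. Abcc9, another, fell by 1.46, with an adjusted p of 0.0547 and 0.0562 when undifferentiated replicate 1 or 3 was left out, 0.0503 with the probe set of largest variance and 0.0508 with robust eBayes. Without differentiated replicate 2, Abcc9 differed by -0.91 (adjusted p = 0.0102). The part of these cell types in the differences of the family was not tested.

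Calcrl and Ramp2 are known from endothelium, so its markers were set beside them. Of 12 measured endothelial markers 1 rose and 2 fell, with a median whose sign turned between settings (-0.14 to 0.094). The log2 summed levels were 9.16 to 9.48 in the arrays labelled undifferentiated and 8.63 to 8.74 in those labelled differentiated. The transcription factor gene Erg rose by 0.96, the tight junction gene Cldn5 fell by 2.31, and Egfl7 fell by 0.50. Cldn5, with means of 8.14 and then 5.84, weighs heavily in the fall of the summed level. The defining markers Cdh5 and Kdr, named after their values were seen, had means of 3.98 and 3.59 in the undifferentiated arrays and 3.96 and 3.65 in the differentiated ones. Of 8 measured macrophage and osteoclast markers, cells in which Calcr is known, 3 rose and 0 fell, with log2 summed levels of 10.83 to 11.40 and then 11.89 to 13.09. Among them Itgb3 rose by 2.16 and the protease gene Ctsk by 1.80. Of 6 measured glia and Schwann markers 1, S100b, rose by 0.74, and 1, the myelin gene Mbp, fell by 1.97. Egfl7 lost its call without differentiated replicate 2 (adjusted p = 0.0508) or undifferentiated replicate 3 (0.0752). S100b lost it without undifferentiated replicates 2 (adjusted p = 0.147) or 3 (0.0707) or differentiated replicates 1 (0.116, difference 0.45) or 3 (0.0819). It also lost it with median centring (adjusted p = 0.0514), eBayes without the trend (0.0606) and robust eBayes (0.0601). With differentiated replicate 2 left out, 2 of the glial markers rose. The part of these cells in the family's differences was not tested either.

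Of 7 measured genes for peptide maturation 4 fell and 1 rose, with a median of -0.38, against a median of 0.060 over all genes. Adrenomedullin, intermedin and CGRP all need amidation of the last residue by the enzyme of Pam, which fell by 1.32 ± 0.11 (SE); it lies outside the naming rule and was picked with its value known. Scg5, the chaperone of a prohormone convertase, fell by 3.11 and Pcsk1n, an inhibitor of prohormone convertases, by 2.04. Furin, a convertase of the constitutive pathway, rose by 0.56 (limma adjusted p = 0.0152), but its adjusted p was 0.0656 with undifferentiated replicate 2 left out, and 0.0622 or 0.0615 with differentiated replicate 1 or 3 left out. Of 5 measured genes for breakdown, binding and scavenging of these peptides 1 rose and 2 fell. Mme, the cell-surface peptidase neprilysin, rose by 3.18 ± 0.26, while Ackr3, a decoy receptor that takes up adrenomedullin, fell by 2.17 ± 0.21 and Ece1, a peptidase that cleaves CGRP inside endosomes, by 1.45 ± 0.12. Without differentiated replicate 1, the peptidase gene Anpep also passed (adjusted p = 0.0331), which made 2 rises. Of the 3 relatives, Crcp, a small protein linked to CGRP receptor signalling, fell by 0.63 ± 0.12 (adjusted p = 0.00184); Iapp, the amylin gene, and the orphan receptor gene Gpr182 differed by 0.15 and 0.053 and did not pass.

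Downstream of the receptors the genes were divided. Of 28 measured Gs and cAMP signalling genes 8 rose and 8 fell, where 14.7% of all genes were called higher and 14.9% lower. The log2 summed level, in which bright genes such as Gnas weigh most, was 13.81 to 13.90 and then 13.10 to 13.25. The median of 0.098 was not stable: it was 0.038 without undifferentiated replicate 1, 0.063 without undifferentiated replicate 2, 0.044 without differentiated replicate 1 or 3, and 0.0046 with dim genes left out. The adenylyl cyclase gene Adcy4 rose by 1.05 ± 0.12 (SE) and the cAMP phosphodiesterase gene Pde4d by 0.87 ± 0.11. The protein kinase A subunit gene Prkar1b fell by 1.62 ± 0.10, the transcription factor gene Crem by 1.78 ± 0.11, and Gnas, which encodes the Gs alpha subunit itself and was picked outside the naming rule, by 1.43 ± 0.12. Gnas differed by -2.68 where its probe set of largest variance was read. Of 8 genes for receptor desensitisation and recycling 3 rose and 2 fell. The receptor kinase gene Grk5 rose by 0.70 and the arrestin gene Arrb1 by 0.47, the recycling factor gene Nsf fell by 0.63, and the receptor kinase gene Grk3 fell by 0.74 (limma adjusted p = 0.0135). Leaving out undifferentiated replicate 1 (adjusted p = 0.055) or differentiated replicate 1 (0.0571) or 3 (0.0563) ended the call of Grk3.

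Adm is a target of hypoxia-inducible factors, and 29 of 30 other listed targets were measured. Of these 3 rose and 19 fell, with a median of -0.56, in the arrays labelled with 3% oxygen. Adm fell further than all but Car12, which fell by 4.02. Hmox1, heme oxygenase, fell by 3.16 and Ndrg1 fell by 2.35, whereas the collagen-modifying genes Lox and Plod2 rose by 1.71 and 0.85. When each array was left out, 15 to 18 of the targets fell. Oxygen and mitogens changed together and an exchange of the group labels was not tested, so no effect of oxygen is read from these falls. Of the 5 factor genes, Hif1a rose by 1.72 ± 0.11 (SE), Epas1 fell by 2.45 ± 0.12 and Arnt2 by 1.71 ± 0.11, and Hif3a and Arnt did not pass.

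**Figure D4:**
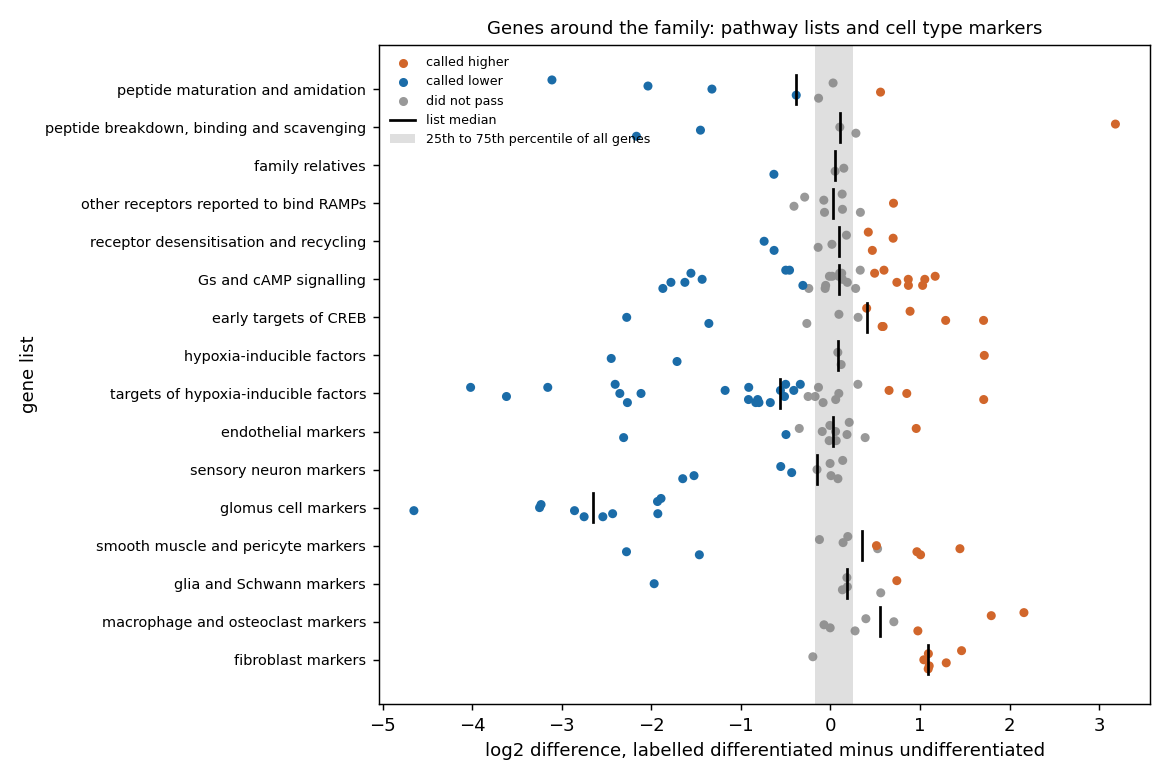
Log2 difference (x axis, arrays labelled differentiated minus undifferentiated) of every measured gene of 16 lists (points, coloured by the limma call), with list medians as black lines and the 25th to 75th percentile of all genes tested in grey. The 10 glomus cell markers all lie to the left with a median of -2.64, 19 of 29 targets of hypoxia-inducible factors fell, and Gs and cAMP signalling genes lie on both sides, 8 higher and 8 lower.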

How the data were processed

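Per the labels' protocols, 6 Affymetrix arrays were hybridised with biotin-labelled cRNA made from 100 ng total RNA. The authors deposited log2 values for 29214 probe sets. The base was inferred from their range; background correction, normalization and software were not given in the labels or the table. They were used without further normalization. Array medians lay between 5.05 and 5.13; the number of arrays limits the precision. The platform table names 15310 probe sets with 1 gene symbol and 323 with several, and 13581 are unnamed here. Each gene kept its probe set of highest mean, which left 14506 genes. The 6 arrays were fitted together with lmFit and eBayes (with trend) of limma 3.58.1, R 4.3.3, two-sided, with Benjamini-Hochberg adjustment over all genes and a threshold of 0.05; the median residual SD was 0.16. Promoter letters were searched in Python 3.11.15.

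The members, the 16 gene lists and the rules were chosen with earlier results of these data known. Named are all members, from each list the 2 genes of smallest p called in each direction (the 2 of smallest p where none was called), the 5 most like profiles of members called with a difference of at least 1, and Th. Alternatives were other normalizations, a filter on dim genes, other probe set rules, variance models, array weights, stricter thresholds, a block by replicate number and leaving out each array.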

Additional observations from a re-analysis of the deposited data

How the results depend on the processing

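Adm, Adm2, Calcrl and Ramp3 kept their direction and their call under the 16 alternatives run for each, with differences of -4.15 to -3.74, -2.35 to -1.96, 0.46 to 0.80 and 2.18 to 2.51. The members called higher were 3, and 1 (Ramp3) at an adjusted p under 0.01 and 1 with a log2 difference of at least 1; leaving out each array gave 2 to 4. The members called lower were 2 throughout. With a log2 difference of at least 1 required, 1160 genes passed in place of 4286. Calca turned sign with quantile normalization (-0.055), median centring (-0.0062), without undifferentiated replicates 1 (-0.15) and 3 (-0.038) and without differentiated replicates 2 (-0.0015) and 3 (-0.027), and Calcb without differentiated replicate 3 (0.0080); over single arrays left out they ran from -0.15 to 0.26 and from -0.24 to 0.0080. Ramp1 minus Calcrl turned sign without undifferentiated replicate 2 (0.0038; -0.35 to 0.0038 over single arrays). The cause was not tested. With dim genes left out, Calca, Calcb and Calcr were not tested. Whether the replicate numbers pair the arrays was not settled. The deviations of same-numbered arrays correlated at 0.12, 0.12 and -0.0038, and those of differently numbered arrays at -0.15 to 0.062. With the replicate block 4430 genes passed, and Adm differed by -3.88; no member changed its call. The list counts and the genes outside the family were run under the same alternatives after the data were seen. Dim values limit what can be said of Calca, Calcb and Calcr.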

Other observations

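RAMPs are also reported to bind other receptors, and 8 of 9 of those listed were measured. The parathyroid hormone receptor gene Pth1r rose by 0.70 ± 0.10 (SE, limma adjusted p = 0.000255), and the other 7 did not pass. Of these, Gper1 and Vipr2 were named after their values were seen and differed by -0.41 and 0.33.

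Of 11 measured early target genes of CREB, the transcription factor that cAMP activates, 6 rose and 2 fell, with a median of 0.40. Over all genes 14.7% were called higher and 14.9% lower. When each array was left out, 4 to 6 of the list rose. Its log2 summed level, in which bright genes such as Dusp1 weigh most, was lower in the arrays labelled differentiated. It went from a range of 11.57 to 11.74 to one of 11.23 to 11.36. Egr1 rose by 1.71 ± 0.14 (SE) and Nr4a1 by 0.89 ± 0.12, both immediate early transcription factor genes. The salt-inducible kinase gene Sik1 fell by 2.27 ± 0.09 (limma adjusted p = 4.93e-08) and the phosphatase gene Dusp1 by 1.36 ± 0.11. Sik1 read 9.87 ± 0.015 (SD, n = 3) in the arrays labelled undifferentiated and 7.59 ± 0.10 in those labelled differentiated.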
